A study of Sus scrofa with 2 samples.

Results

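UGGT2, PLCL1 and AGBL1 are 3 of the 31908 genes in single-nucleus RNA sequencing matrices of the pig pancreas. They were chosen by their measured values, as genes with a higher share of the UMIs (unique molecular identifiers, which count RNA molecules) in ductal nuclei of the transgenic library than in those of the wild-type library. Their difference in ductal nuclei is therefore given as a description. The same holds where the UMIs of ductal nuclei are split among nuclei, groups of nuclei or ranges of depth. The other classes of nuclei and the genes around the 3 are what the choice did not use.

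UGGT2 belongs to the quality control of glycoprotein folding in the endoplasmic reticulum (ER). Its family adds a glucose to the glycan of a misfolded glycoprotein, so that the lectins calnexin and calreticulin bind that protein again. PLCL1 resembles the phospholipases C but lacks their catalytic activity. It binds inositol trisphosphate, the messenger that releases calcium from the ER, and also binds proteins that handle GABA-A receptors and protein phosphatase 1. AGBL1 is a metallocarboxypeptidase that removes glutamates from the ends of proteins and from the side chains of tubulin. Ductal cells line the ducts and secrete bicarbonate-rich fluid, and each carries a primary cilium whose microtubules contain glutamylated tubulin.

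The pancreas of 1 wild-type bama pig (WT) was compared with that of 1 transgenic bama pig (PIGinH11), which carries GIPRdn (a dominant-negative incretin receptor), hIAPP (human islet amyloid polypeptide) and PNPLA3I148M (a lipid droplet protein variant), knocked in at the H11 locus. The promoters of these transgenes are specific to beta cells or to the liver. Both pigs were 18 months old, had a control diet until month 6 and then 12 months of a high-fat, high-sucrose diet, which held 37% sucrose, 53% control diet and 10% lard. With 1 library per group no test between the pigs was possible, and all intervals are exact 95% intervals that cover counting error only, so that a difference between the genotypes and one between 2 animals, or 2 library preparations, cannot be told apart.

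After filtering, 11854 WT and 13126 PIGinH11 nuclei remained, with medians of 3018.5 and 1167 UMIs. Of these, 2146 and 2196 were ductal-like, with 8577142 and 3312052 UMIs in all and medians of 3408 and 1021.5. The PIGinH11 nuclei were thus much shallower in each named class. All 15 ductal markers were detected in ductal-like nuclei of both libraries, with summed levels of 60145 CPM (UMIs scaled to 1000000 UMIs of the class) in WT and 49202 CPM in PIGinH11. The 2 libraries shared 46 barcodes among these nuclei.

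In the assembly Sscrofa11.1, UGGT2 (ENSSSCG00000009502) spans 170 kb at chr11:65307208-65476791. PLCL1 (ENSSSCG00000016083) spans 822 kb at chr15:101602336-102424225. AGBL1 (ENSSSCG00000036551) spans 809 kb at chr1:192725367-193534530. The matrices list AGBL1 by its identifier alone, and its symbol came from the reference table. All 3 are annotated as protein-coding, and PLCL1 and AGBL1 are among the long genes of the genome.

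Each of the 3 genes was scarce in ductal-like nuclei of WT and higher in those of PIGinH11. UGGT2, the ER glycoprotein sensor, had 19 UMIs or 2.22 CPM (1.33 to 3.46) in WT and 119 UMIs or 35.9 CPM (29.8 to 43.0) in PIGinH11, a log2 ratio of 4.02 (3.31 to 4.80). PLCL1, the inositol trisphosphate binding protein, had 144 UMIs or 16.8 CPM (14.2 to 19.8) in WT and 744 UMIs or 225 CPM (209 to 241) in PIGinH11, a log2 ratio of 3.74 (3.48 to 4.01). AGBL1, the carboxypeptidase, had 33 UMIs or 3.85 CPM (2.65 to 5.40) in WT and 139 UMIs or 42.0 CPM (35.3 to 49.6) in PIGinH11, a log2 ratio of 3.45 (2.89 to 4.04). The genes were chosen by this contrast, so that the separate intervals of the 2 libraries add nothing to it.

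Among genes that reached 20 UMIs in both libraries, 11.9% were higher by at least 2-fold in ductal-like nuclei of PIGinH11 (1326 of 11156) and 1.84% were lower by as much. PLCL1 and AGBL1 passed this minimum, while UGGT2 missed it with 19 UMIs in WT. The share of higher genes was not even over the range of levels, since it was 6.59% with a minimum of 50 UMIs. The minimum of 20 UMIs is a higher CPM in PIGinH11 (3312052 UMIs) than in WT (8577142 UMIs). Genes of low level thus passed it more readily when they were higher in PIGinH11, so these shares are partly set by the filter. The median log2 ratio of these 11156 genes was 0.15, and dividing it out gave 3.87 for UGGT2, 3.59 for PLCL1 and 3.30 for AGBL1.

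**Figure D1:**
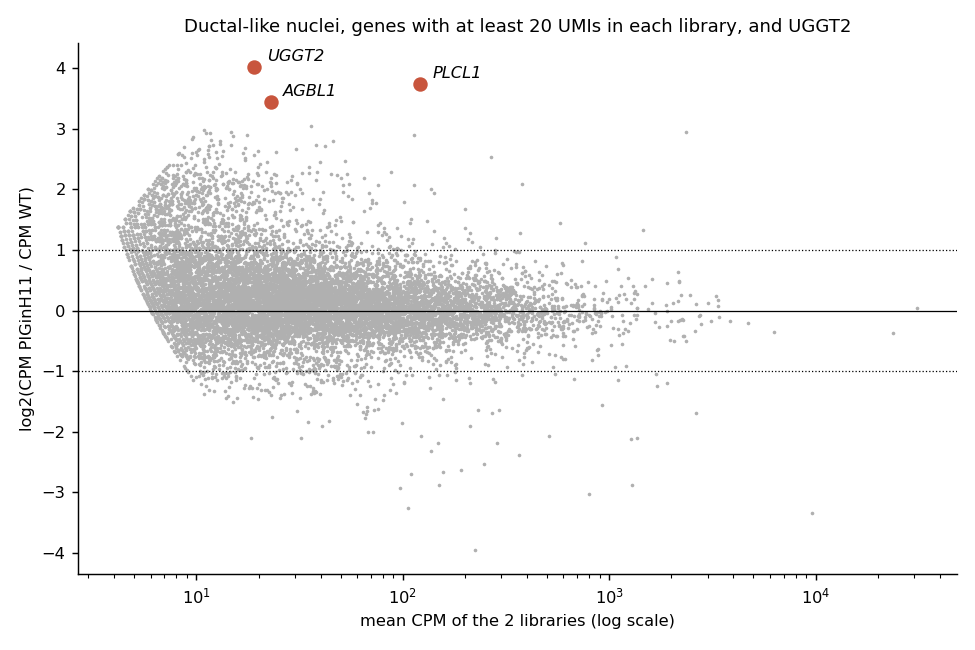
Log2 ratio of CPM in PIGinH11 over WT ductal-like nuclei (y axis) against the mean CPM of the 2 libraries (x axis, log scale). Each grey point is 1 gene that reached 20 UMIs in both libraries, dotted lines mark 2-fold, and the 3 red points are UGGT2 at 4.02, PLCL1 at 3.74 and AGBL1 at 3.45, above all grey points.

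The size of the ratio is the value by which the 3 genes were chosen, and their order among other genes is a description of it. They stood 1st, 2nd and 3rd among 8321 named genes with at least 100 UMIs over both libraries and 10 in each, a minimum that UGGT2 and AGBL1 met through their UMIs in PIGinH11. Among those that came next were AUTS2 at 2.94 (a regulator of neuronal development, 543 and 4171 CPM), KLF12 at 2.90 (a transcriptional repressor) and ZNF536 at 2.89 (a zinc finger protein). CREB5 (a transcription factor), LAMA1 (a laminin chain) and TMOD2 (a tropomodulin that caps actin filaments) followed at 2.79, 2.79 and 2.74. When genes without a symbol were included, the 3 genes took places 1, 3 and 4 of 9521. The counting intervals of several of these genes overlapped. The lower bounds of UGGT2 and AGBL1, 3.31 and 2.89, lay below the upper bounds of ZNF536 and CREB5 (both 3.48) and TMOD2 (3.42). The genes were chosen by this ratio, so no order is read from the intervals.

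UMIs of these genes came from a minority of ductal-like nuclei in both libraries. For UGGT2, 17 of 2146 WT nuclei (0.792%, Clopper–Pearson interval 0.462 to 1.27) and 106 of 2196 PIGinH11 nuclei (4.83%, 3.97 to 5.81) had a UMI. For PLCL1, these were 85 nuclei (3.96%, 3.18 to 4.87) and 357 nuclei (16.3%, 14.7 to 17.9). For AGBL1, they were 33 nuclei (1.54%, 1.06 to 2.15) and 131 nuclei (5.97%, 5.01 to 7.04). When each nucleus was thinned to 500 UMIs, so that both libraries had the same depth, the shares were 0.140% and 1.55% for UGGT2, 0.652% and 7.29% for PLCL1, and 0.280% and 2.55% for AGBL1. The thinned WT share of UGGT2 rests on 3 nuclei. The shares at equal depth were further apart, in relative terms, than those at the depth sequenced. No class is known to lack these genes, and the lowest shares elsewhere in PIGinH11 were 1.61% of 62 macrophage-like nuclei for UGGT2 (median depth 985.5 UMIs), 0 of 39 gamma-like nuclei for PLCL1 (1590 UMIs), with an upper Clopper–Pearson limit of 9.03%, and 0 of 69 mural-like nuclei for AGBL1 (1651 UMIs), with an upper limit of 5.21%.

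A positive nucleus usually held a single UMI of UGGT2 or AGBL1. UGGT2 reached at most 2 UMIs in a ductal-like nucleus of either library, and AGBL1 reached 1 in WT and 3 in PIGinH11. PLCL1 was less even, since 64 PIGinH11 and 12 WT nuclei had 3 or more UMIs and the highest counts were 24 and 9. The richest 1% of PIGinH11 nuclei (22 nuclei) held 29.4% of the UMIs of UGGT2, 30.6% of those of PLCL1 and 21.6% of those of AGBL1. In WT, the same number of nuclei held 100% of the UMIs of UGGT2, 54.2% of those of PLCL1 and 66.7% of those of AGBL1. For UGGT2 and AGBL1 these WT shares follow from low counts. UGGT2 was seen in only 17 WT nuclei, and AGBL1 in 33 with 1 UMI each. At least 1 of the 3 genes was seen in 6.01% of WT and 24.4% of PIGinH11 ductal-like nuclei, and 6 and 56 nuclei held at least 2 of them. The product of the single-gene shares gives 2.22 and 42.8 such nuclei, for genes spread independently over nuclei of equal depth. The nuclei differed in depth, and deep nuclei hold UMIs of more genes, so the counts above this product do not show that the genes go together.

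The UMIs by which the genes were chosen were also split over subdivisions of ductal-like nuclei, as a further description. A second clustering gave 8 subclusters, of which 6 had at least 50 nuclei in each library, and each of the 3 genes was higher in PIGinH11 in all 6. Over these 6, UGGT2 ranged from 0.781 to 5.06 CPM in WT and from 29.3 to 47.5 CPM in PIGinH11. PLCL1 ranged from 8.66 to 22.7 CPM in WT and from 117 to 360 CPM in PIGinH11, and AGBL1 from 2.37 to 8.22 CPM and from 22.1 to 79.3 CPM. The lowest of these PIGinH11 subclusters was above the highest WT subcluster for all 3 genes. Among the 6 was a subcluster of 232 WT and 485 PIGinH11 nuclei that matched acinar markers best, with 9 of 10 met. It held the highest PIGinH11 level of UGGT2, 47.5 CPM. Without all subclusters that matched acinar markers best, 1870 WT and 1660 PIGinH11 nuclei remained. The log2 ratios of the 3 genes there lay within the intervals reported above. Subclusters of 1 library share its animal and preparation and are not replicates.

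The same UMIs of ductal-like nuclei were also split by depth, and the difference was present among nuclei of like depth. In nuclei with at least 4000 UMIs (898 in WT and 127 in PIGinH11), UGGT2 was at 1.55 CPM (0.708 to 2.94) and 29.0 CPM (18.0 to 44.4). PLCL1 was at 17.9 CPM (14.6 to 21.7) and 361 CPM (319 to 408) there, and AGBL1 at 2.92 CPM (1.70 to 4.68) and 19.4 CPM (10.6 to 32.5). In nuclei with 1000 to 2000 UMIs, the log2 ratios were 3.09, 3.90 and 2.75, from 3, 9 and 5 WT UMIs. Those of UGGT2 and AGBL1 lay below the intervals over all ductal-like nuclei (3.31 to 4.80 and 2.89 to 4.04). Under 1000 UMIs, WT had 1, 2 and 1 UMIs (9.42, 18.8 and 9.42 CPM), and PIGinH11 had 40.1, 125 and 63.4 CPM. In WT too, AGBL1 was lower in deeper nuclei, with 8.02 CPM at 1000 to 2000 UMIs and 2.92 CPM at 4000 or more. The ratios over all ductal-like nuclei thus compare nuclei of unlike depth. Within PIGinH11 the genes varied differently with depth. PLCL1 was lowest in nuclei under 1000 UMIs, at 125 CPM (102 to 153), and highest in the deepest nuclei. AGBL1 was highest in nuclei under 1000 UMIs, at 63.4 CPM (46.9 to 83.8), and lowest in the deepest. The UGGT2 intervals of the 4 depth ranges overlapped in PIGinH11.

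**Figure D2:**
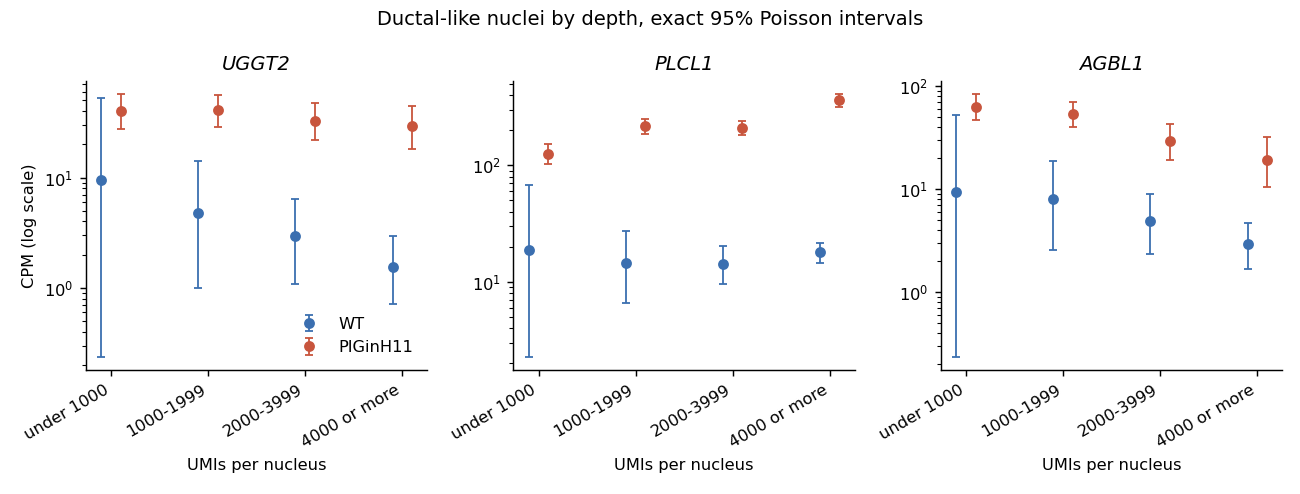
CPM (y axis, log scale) of each gene in ductal-like nuclei grouped by their UMIs (x axis), with exact 95% Poisson intervals, in WT (blue) and PIGinH11 (red). In nuclei with at least 4000 UMIs the levels were 1.55 and 29.0 CPM for UGGT2, 17.9 and 361 CPM for PLCL1, and 2.92 and 19.4 CPM for AGBL1, and only under 1000 UMIs, with 137 WT nuclei, did the intervals of UGGT2 and AGBL1 overlap between the libraries.

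The summed markers of several other cell types were also higher in these nuclei, although not those of all. Long genes of low level were often higher in PIGinH11, and whether the sums reflect RNA from those cell types was not tested. The summed level of the 10 acinar markers was 946 CPM in WT and 1662 CPM in PIGinH11 ductal-like nuclei, against 25066 and 22643 CPM in acinar-like nuclei, and none of the 10 was at 0. The 11 endothelial markers summed to 54.3 and 127 CPM, the 12 stellate markers to 59.2 and 178 CPM, the 6 delta markers to 43.1 and 116 CPM, and the 11 lymphocyte markers to 54.1 and 97.2 CPM. The 9 mural markers, which mark the cells with the most PLCL1, summed to 29.1 and 45.6 CPM, against 4928 and 4898 CPM in mural-like nuclei, with 2 of them at 0 in WT and 1 in PIGinH11. Macrophage (11.5 and 41.7 CPM), alpha (93.2 and 203 CPM) and beta markers (314 and 452 CPM) were also higher in sum. So were general endocrine (212 and 389 CPM) and adipocyte markers (5.83 and 14.8 CPM). The 6 Schwann markers in the matrices went the other way, from 171 to 114 CPM. The 4 mucous ductal markers also fell, from 334.6 to 89.97 CPM. The 7 gamma markers stood at 1445 and 1481 CPM in sum. Of the 6 gamma markers with at least 20 UMIs in each library, 4 were higher by at least 2-fold and 0 were lower. Over all genes these shares were 11.9% and 1.84%. Of the 15 ductal markers, 0 were higher by as much and 2 were lower. With no UMI of the mural, endothelial, stellate, lymphocyte or delta markers (1004 and 1065 nuclei), the log2 ratios were 3.69 for UGGT2, 3.42 for PLCL1 and 3.59 for AGBL1. With no UMI of the acinar markers (174 and 375 nuclei), they were 2.90, 3.94 and 4.73. These ratios rest on few WT UMIs, since all 2146 WT ductal-like nuclei held 19 of UGGT2 and 33 of AGBL1. A nucleus without these marker UMIs may still hold RNA of those cell types. The part of such RNA in the differences of the 3 genes was not tested.

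Across the other classes the 3 genes differed in where they were highest. No difference between classes was tested, and the few UMIs of small classes left wide intervals. UGGT2 was highest in stellate-like nuclei of both libraries, at 94.8 CPM (73.9 to 120) in WT and 108 CPM (80.1 to 143) in PIGinH11. Alpha-like nuclei, which make glucagon, followed with 68.5 CPM (41.9 to 106) and 74.2 CPM (45.3 to 115), and delta-like nuclei, which make somatostatin, had 70.6 CPM (25.9 to 154) and 71.1 CPM (35.5 to 127). The level of UGGT2 in these 3 classes differed between libraries by less than the counting error. Mural-like nuclei had 60.7 CPM and 47.9 CPM, gamma-like nuclei 51.0 and 24.1 CPM and Schwann-like nuclei 25.8 and 24.3 CPM, from 2 to 8 UMIs each.

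In acinar-like nuclei, which make the digestive enzymes, UGGT2 was at 10.7 CPM (9.54 to 11.9) in WT and 35.6 CPM (32.7 to 38.7) in PIGinH11, a log2 ratio of 1.74 (1.54 to 1.94), and it was higher in PIGinH11 at each of the 4 ranges of depth, with 9.79 and 34.0 CPM at 4000 UMIs or more and 14.8 and 46.5 CPM under 1000. In beta-like nuclei it was at 20.2 CPM (10.7 to 34.5) and 57.2 CPM (36.2 to 85.8), a ratio of 2.84 (1.38 to 6.10). Endothelial-like nuclei had 9.19 CPM and 19.4 CPM with a log2 ratio of 1.08, whose interval reached 0 (-0.04 to 2.30). Macrophage-like nuclei had 1 UMI in each library, and lymphocyte-like nuclei had 0 UMIs in WT and 4 in PIGinH11. By level, ductal-like nuclei took place 11 of 12 classes in WT and place 6 in PIGinH11. There they stood beside acinar-like nuclei, and the levels of these 2 classes did not differ beyond counting error. All neighbours in this order overlapped in their intervals, in both libraries.

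PLCL1 was most abundant in mural-like nuclei of both libraries. Mural-like nuclei (pericytes and smooth muscle cells) had 2665 CPM (2394 to 2959) in WT and 2733 CPM (2451 to 3038) in PIGinH11, and a UMI was seen in 73.7% and 84.1% of these nuclei. Delta-like nuclei had 788 CPM (611 to 1001) and 743 CPM (613 to 892). Both classes had log2 ratios near 0, of 0.04 (-0.18 to 0.25) and -0.09 (-0.53 to 0.37). Lymphocyte-like nuclei had 359 CPM and 302 CPM, from 35 UMIs in each library that came from 4 and 8 nuclei.

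PLCL1 was lower in PIGinH11 in the endothelial-like and the stellate-like class. It fell from 501 CPM (460 to 545) to 278 CPM (249 to 309) in endothelial-like nuclei, with a log2 ratio of -0.85 (-1.05 to -0.65). It fell from 351 CPM (309 to 396) to 236 CPM (194 to 286) in stellate-like nuclei, with a log2 ratio of -0.57 (-0.91 to -0.24). The stellate-like difference was at 0.047 (-1.15 to 1.47) when nuclei with 1300 UMIs or more were left out, from 7 and 33 UMIs. Acinar-like nuclei had 55.5 CPM (52.9 to 58.3) and 83.2 CPM (78.7 to 87.8), a log2 ratio of 0.58 (0.48 to 0.69), of which 0.35 remained after the median of all genes in that class was divided out.

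The place of ductal-like nuclei in the order of PLCL1 levels moved from 8 in WT, beside alpha-like (13.7 CPM) and beta-like nuclei (12.4 CPM), to 6 in PIGinH11. In PIGinH11 the interval of ductal-like nuclei, 209 to 241 CPM, overlapped that of stellate-like nuclei, 194 to 286 CPM, and lay above that of acinar-like nuclei. Beta-like nuclei had 29.8 CPM in PIGinH11. Gamma-like nuclei had no UMI in either library, which allows up to 76.5 CPM in WT and 36.2 CPM in PIGinH11 (3 counts of each library's total in the class). Macrophage-like nuclei had 7 and 2 UMIs and Schwann-like nuclei 1 and 4.

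AGBL1 was a gene of few UMIs in most classes, and its highest level among the named classes was in gamma-like nuclei, which make pancreatic polypeptide. These had 2 UMIs or 51.0 CPM (6.17 to 184) in 6 WT nuclei and 25 UMIs or 302 CPM (195 to 445) in 39 PIGinH11 nuclei, a ratio of 5.92 with a counting interval of 1.48 to 51.6. The 25 UMIs came from 10 nuclei, with up to 9 in a single nucleus, which the interval does not take into account. In WT the interval overlapped that of alpha-like nuclei. Delta-like nuclei had no UMI in WT, which allows up to 43.4 CPM, and 13 UMIs or 84.0 CPM (44.7 to 144) in PIGinH11. Ductal-like nuclei took place 3 in PIGinH11 with 42.0 CPM, and overlapped in their interval with delta-like, lymphocyte-like (34.5 CPM, 4 UMIs) and alpha-like nuclei (29.7 CPM, 8 UMIs). In WT they took place 7 with 3.85 CPM.

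Acinar-like nuclei held most of the AGBL1 UMIs, since they were the most numerous, with 329 UMIs or 10.9 CPM (9.73 to 12.1) in WT and 226 UMIs or 14.4 CPM (12.6 to 16.4) in PIGinH11. Their log2 ratio was 0.41 (0.15 to 0.65), and 0.18 (-0.07 to 0.42) after the median of all genes in the class was divided out. At like depth the direction was not constant. AGBL1 was lower in PIGinH11 among acinar-like nuclei with 2000 to 4000 UMIs, at 13.2 CPM (10.7 to 16.1) in WT and 7.44 CPM (5.16 to 10.4), and among those with at least 4000 UMIs, at 8.80 CPM (7.53 to 10.2) and 3.801 CPM (2.13 to 6.27). Under 2000 UMIs the intervals of the libraries overlapped. Mural-like nuclei had no AGBL1 UMI in either library, which allows up to 28.0 CPM and 29.5 CPM, below the 42.0 CPM of ductal-like nuclei in PIGinH11. Stellate-like nuclei had 4 and 8 UMIs, endothelial-like nuclei 3 and 10, alpha-like nuclei 6 and 8, and beta-like nuclei 3 and 2.

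**Figure D3:**
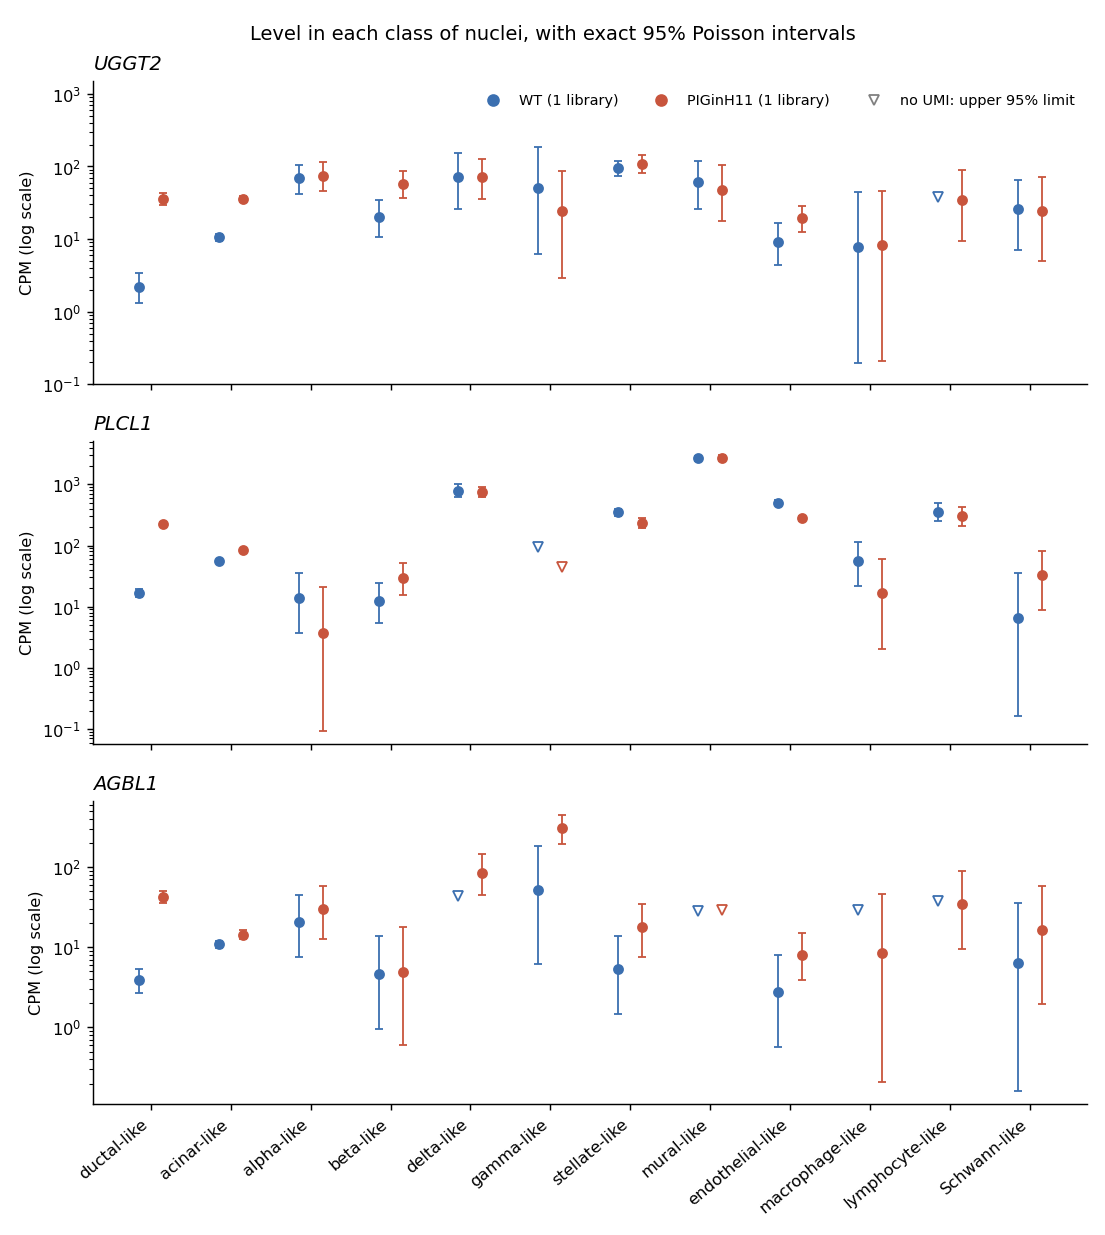
Level of each gene in CPM (y axis, log scale) in 12 classes of nuclei (x axis) of WT (blue) and PIGinH11 (red), with exact 95% Poisson intervals; open triangles mark the upper limit of a class with no UMI. PLCL1 stood highest in mural-like nuclei at 2665 and 2733 CPM, UGGT2 in stellate-like nuclei at 94.8 and 108 CPM, and AGBL1 in gamma-like nuclei at 51.0 and 302 CPM, while each gene was lower in WT than in PIGinH11 ductal-like nuclei.

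In acinar-like nuclei, 16.9% of the genes that reached 20 UMIs in both libraries were higher by at least 2-fold in PIGinH11. UGGT2 was 1 of these, and PLCL1 and AGBL1 were not. Their places by ratio among 10779 named genes were 151, 2460 and 3404 in acinar-like nuclei. In endothelial-like nuclei PLCL1 took place 3872 of 4021.

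**Figure D4:**
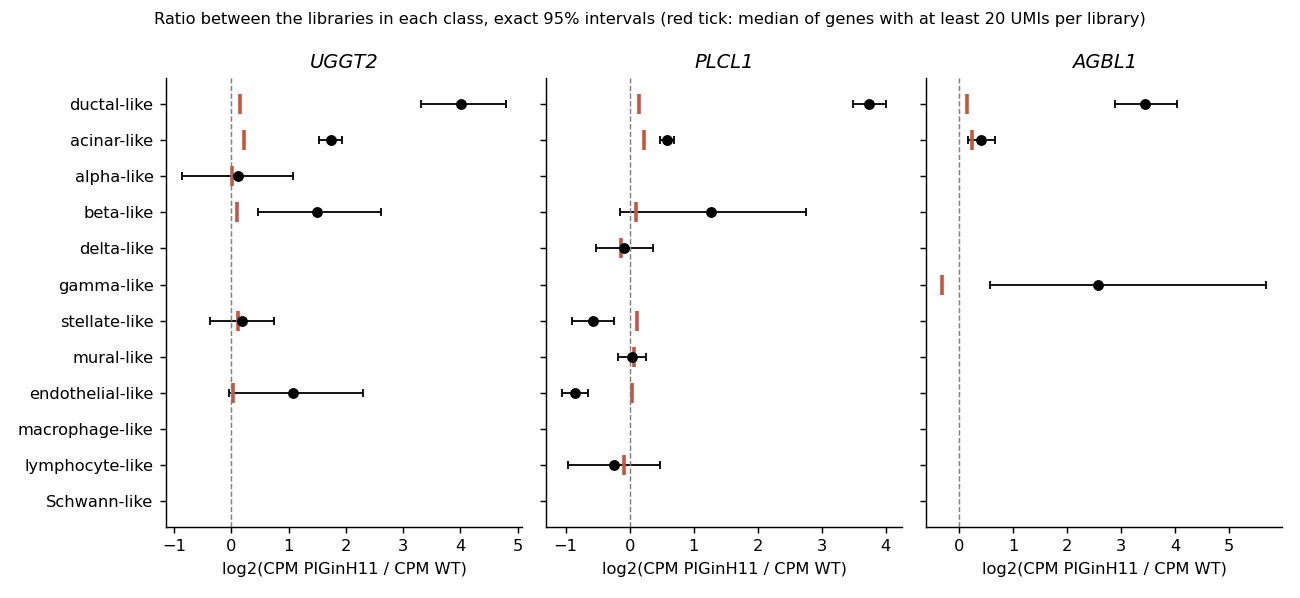
Log2 ratio of CPM in PIGinH11 over WT (x axis) in each class of nuclei (y axis), with exact 95% intervals, for classes with at least 20 UMIs over both libraries and at least 1 in each; the red tick is the median ratio of the genes that reached 20 UMIs in both libraries. Ductal-like nuclei stood at 4.02, 3.74 and 3.45, and PLCL1 was below 0 in stellate-like (-0.57) and endothelial-like nuclei (-0.85).

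Of 26 genes of the calnexin cycle and glycoprotein folding, 25 were found in the matrices by symbol. Of these, 24 reached 20 UMIs in both libraries of ductal-like nuclei. None of the 24 was higher or lower by 2-fold, beside 11.9% and 1.84% of all genes. Their median log2 ratio was -0.17, against 0.15 over all 11156 genes, and they ranged from -0.72 to 0.45. UGGT1, the paralog of UGGT2, was at 77.1 CPM in WT and 105 CPM in PIGinH11, with a log2 ratio of 0.45 (0.26 to 0.64), the highest of the list. CANX (calnexin) was at 106 and 69.1 CPM with a log2 ratio of -0.61 (-0.83 to -0.40), and CALR (calreticulin) at 25.9 and 25.7 CPM with -0.01 (-0.39 to 0.35).

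A list of 29 genes held the phospholipase C family, inositol trisphosphate signalling, and GABARAP and protein phosphatase 1 genes. Of these, 26 were found in the matrices by symbol and 21 reached 20 UMIs in both libraries. 5 of these 21 were higher by at least 2-fold and 0 were lower, with a median log2 ratio of 0.53. The 4 highest were PLCL2, the paralog of PLCL1, at 6.41 and 19.6 CPM with a log2 ratio of 1.61 (1.07 to 2.16), PLCD1 at 1.37 (0.43 to 2.32), PLCE1 at 1.37 (1.09 to 1.66) and PLCG2 at 1.32 (0.54 to 2.11). PLCD1, PLCE1 and PLCG2 are phospholipases C that cleave phosphatidylinositol bisphosphate. PLCD3 was the fifth, at 1.10 (0.61 to 1.58). The inositol trisphosphate receptors ITPR1, ITPR2 and ITPR3 were at 0.23, 0.53 and 0.87. The count of 5 is to be read against the 11.9% of all genes, a share that was larger among genes of low level. Among genes of 100 to 300 kb, 44.5% of those with a mean below 50 CPM and 0.894% of the others were higher by at least 2-fold. In WT the 5 lay between 2.45 CPM (PLCD1) and 23.8 CPM (PLCE1). PLCL1 was chosen by its ratio, so its place above the 5 is no result.

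Of 18 genes listed for changes to tubulin residues, such as added or removed glutamates, 13 were found in the matrices by symbol. AGBL3 and AGBL4 were among those not found. 10 genes reached 20 UMIs in both libraries, and the median log2 ratio of these was 0.35. VASH2, which removes the terminal tyrosine of tubulin, was the 1 gene of 10 higher by at least 2-fold, beside 11.9% of all genes, at 8.86 and 18.1 CPM with a log2 ratio of 1.03 (0.52 to 1.54). AGTPBP1, the best known relative of AGBL1, was at 52.2 and 71.6 CPM with 0.45 (0.22 to 0.68). AGBL2, another relative, was at 52.5 and 51.0 CPM, and AGBL5 at 8.16 and 7.25 CPM.

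The ratio in ductal-like nuclei varied with the length of a gene. The median log2 ratio was 0.19 for genes under 10 kb, 0.10 from 10 to 30 kb, 0.06 from 30 to 100 kb, 0.15 from 100 to 300 kb and 0.67 at 300 kb or more. Of 615 genes of at least 300 kb, 42.1% were higher by at least 2-fold. This was tied to a low level, since 81.4% of the 285 long genes with a mean below 50 CPM were higher by at least 2-fold and 8.18% of the 330 others. The medians of these 2 groups of long genes were 1.75 and 0.18. The mean of AGBL1 was below 50 CPM, and that of PLCL1 was above it through PIGinH11 alone, with 16.8 CPM in WT, so that its place in the split depends on its own difference. Genes of 100 to 300 kb with a mean below 50 CPM, as UGGT2 had, had a median of 0.85.

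As a description of the values by which they were chosen, UGGT2 was followed among genes of 100 to 300 kb by SPAG17 (a cilium protein) at 2.83, and PLCL1 and AGBL1 among those of at least 300 kb by NTNG1 (a netrin family protein) at 2.98. In the other classes, 36.0% of 631 genes of at least 300 kb were higher by at least 2-fold in acinar-like, 10.8% of 397 in endothelial-like and 6.60% of 409 in stellate-like nuclei. The part of gene length in the differences of the 3 genes was not tested.

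**Figure D5:**
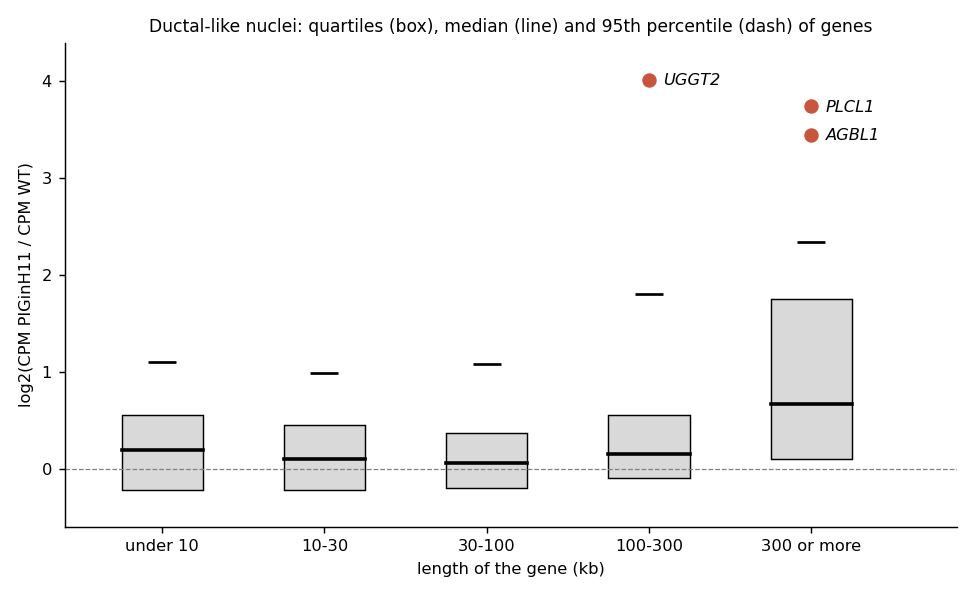
Log2 ratio of CPM in PIGinH11 over WT ductal-like nuclei (y axis) for named genes that reached 20 UMIs in both libraries, by length of the gene (x axis). Boxes span the quartiles, lines are medians and dashes the 95th percentile, which was 1.81 at 100 to 300 kb and 2.34 at 300 kb or more; red points are UGGT2, PLCL1 and AGBL1, at 4.02, 3.74 and 3.45.

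The genes annotated nearest to the 3 had few UMIs in ductal-like nuclei of WT, with the exception of DNAJC3. Beside UGGT2, DNAJC3 (an ER cochaperone, 8.12 kb away) had a log2 ratio of -0.35 (-0.60 to -0.09) at 64.8 and 51.0 CPM, and HS6ST3 (a heparan sulfate sulfotransferase, 39.4 kb away) 1.86 (1.35 to 2.38) at 6.65 and 24.2 CPM. Beside PLCL1, BOLL (an RNA-binding protein of germ cells, 0.104 kb away) had 9 and 27 UMIs with 2.96 (1.83 to 4.23). Beside AGBL1, NTRK3 (a neurotrophin receptor, 784 kb away) had 1.75 (1.03 to 2.49) and ESR2 (an estrogen receptor, 289 kb away) 2.41 (1.93 to 2.90). HS6ST3, BOLL, NTRK3 and ESR2 were thus higher in PIGinH11. The 3 genes were chosen by their ratio, so a lower ratio of their neighbours is no result. Of all genes that reached 20 UMIs in both libraries, 11.9% were higher by at least 2-fold. Among those of 100 to 300 kb with a mean below 50 CPM, the share was 44.5%. An effect of the place in the genome was not tested.

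The levels of the 3 genes were not closely correlated over classes. Many of these levels rest on few UMIs, and AGBL1 had 0 in mural-like, delta-like, macrophage-like and lymphocyte-like nuclei of WT. A low correlation therefore does not show that a shared pattern is absent. Over the 12 named classes of both libraries (24 points, which share libraries and depth), Pearson's r of log2(CPM + 5) was 0.16 between UGGT2 and PLCL1, 0.29 between UGGT2 and AGBL1 and -0.43 between PLCL1 and AGBL1. The genes most like UGGT2 among 12953 were THSD4 (r = 0.81), MAGI2 (0.80) and PCDH9 (0.77), those most like PLCL1 were ADCY3 (0.84), RPS24 (0.78) and ZBTB7C (0.78), and those most like AGBL1 were TPBG (0.82), ANK1 (0.81) and TAFA3 (0.79). In ductal-like nuclei, the log2 ratio of 8 of these genes lay between 0.08 for ADCY3 and 2.57 (1.20 to 4.09) for TAFA3, with 1.18 for MAGI2, and TPBG had 0 and 4 UMIs.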

How the data were processed

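Nuclei of 1 WT and 1 PIGinH11 pancreas were profiled. The deposited matrices, made by the authors with Cell Ranger (version 3.1.0 in the methods, 5.0.0 in the file headers) against Sscrofa11.1, hold raw UMI counts per gene and barcode, before doublet removal and filters.

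Barcodes with 270 to 3700 genes, under 13000 UMIs and under 10% mitochondrial UMIs were kept. The methods print 1300 for the UMI limit, which was run as an alternative. The Scrublet (scanpy 1.11.5) scores highest in each library were removed (0.8% per 1000 barcodes). Nuclei were clustered on 2000 variable genes, with 30 principal components, Harmony, 20 neighbours and Louvain clustering (igraph 0.11.9). Left out of the clustering genes were 67 genes, which are the 3 and those of the 3 lists beside them. The 60 ribosomal protein and 13 mitochondrial genes were also left out. Other genes named here could be among the clustering genes. Clusters were named from at least 3 fixed markers, so class names are rebuilt here and may differ from the study's.

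UMIs were summed per class and library and divided by the class total (CPM). Intervals are Poisson for CPM, conditional binomial for ratios and Clopper–Pearson for shares. The ratio and its interval were tested on Poisson counts simulated from class totals, which is the model that the interval assumes. Such counts leave out the clumping of UMIs within nuclei. Clustering and thinning were not simulated. The genes and lists were chosen with earlier results of these data known. Genes named beside the 3 were the paralogs, up to 4 per list past 2-fold, the 10 largest ratios, nearest neighbours and the 3 most alike in pattern; others of a list are given as examples chosen after their values were seen. Lengths were matched for 94.5% of named genes. Promoter and protein sequences were not analysed here. Some genes that this rule names are not reported here.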

Additional observations from a re-analysis of the deposited data

Results flagged for a closer look

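PLCL1 was flagged because it differed in direction between classes under the same contrast. Its log2 ratio of PIGinH11 over WT was 3.74 (3.48 to 4.01) in ductal-like nuclei, but -0.85 (-1.05 to -0.65) in endothelial-like and -0.57 (-0.91 to -0.24) in stellate-like nuclei. Each class had 1 library per group, so the difference between classes was not tested. The endothelial-like difference kept its sign with nuclei thinned to 500 UMIs (-0.61) and with nuclei under 1300 UMIs (-1.43), whereas the stellate-like difference did not keep it with the latter limit (0.047).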

How the results depend on the processing

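No paired analysis was possible because each group has 1 library, so that no replicate could be left out either. The ductal-like log2 ratios stayed above 1 in all alternatives that could be run, from 2.55 to 4.28 for UGGT2 (15 alternatives), 3.29 to 4.37 for PLCL1 (16) and 2.75 to 4.73 for AGBL1 (16), and 36 of these 47 values lay within the interval of the reported one. Those outside it were, with a UMI limit of 1300, 2.55 for UGGT2 and 3.29 for PLCL1, without doublet removal 3.38 for PLCL1, as a mean over nuclei 3.43 for PLCL1, without the richest 1% of nuclei 4.37 for PLCL1 and 4.68 for AGBL1 (these nuclei held a larger share of the WT than of the PIGinH11 UMIs), and without acinar marker UMIs 2.90 for UGGT2 and 4.73 for AGBL1. With 2 alternatives chosen after the data were seen, they were 3.42 for PLCL1 without UMIs of mural, endothelial, stellate, lymphocyte and delta markers, and 3.09 for UGGT2 and 2.75 for AGBL1 at 1000 to 2000 UMIs. The last 2 values rest on 3 and 5 WT UMIs, and those without acinar marker UMIs on 174 WT nuclei. The other causes were not tested. UGGT2 had no WT UMI left without the richest 1%. The count of 36 includes alternatives that left the ductal-like counts as they were. A finer Louvain resolution gave the same ductal-like nuclei, and dividing out the median log2 ratio of all genes took 0.15 from each ratio. All alternatives reuse the UMIs by which the genes were chosen, so the count is a description.

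Shares of ductal-like nuclei with a UMI fell when thinned to 500 UMIs, by the construction of thinning, to 0.140% and 1.55% (UGGT2), 0.652% and 7.29% (PLCL1) and 0.280% and 2.55% (AGBL1) in WT and PIGinH11. The share of genes higher by 2-fold was 6.59% with at least 50 UMIs in each library. Of 157 values in other classes, 146 lay within their interval, 10 moved and 1 reversed, that of PLCL1 in stellate-like nuclei at the UMI limit of 1300 (0.047). In lymphocyte-like nuclei PLCL1 went from -0.25 to -1.30 when the doublet rate was doubled. Low counts limited UGGT2 and AGBL1 in the small classes.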

Other observations

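Clusters outside the 12 named classes also held these genes. An enzyme-rich cluster of 334 WT and 112 PIGinH11 nuclei had 0 and 2 UMIs of UGGT2, 3 and 3 of PLCL1 and 1 and 1 of AGBL1. Among endocrine-like nuclei, 2 subclusters matched acinar markers best and were kept apart. In that of 38 and 136 nuclei, with 8 of 10 acinar markers, AGBL1 was at 70.3 CPM (19.1 to 180) in WT and 72.2 CPM (31.2 to 142) in PIGinH11, and PLCL1 had the same UMI counts as AGBL1, 4 and 8. In that of 10 and 27 nuclei, with 9 of 10, UGGT2 was at 45.3 CPM (9.35 to 132) and 96.7 CPM (41.7 to 191).

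The share of each gene's UMIs that lay in ductal-like nuclei was 3.95% in WT and 14.2% in PIGinH11 for UGGT2, 4.63% and 24.6% for PLCL1, and 8.55% and 31.0% for AGBL1. These shares restate the contrast by which the genes were chosen. Of all UMIs, ductal-like nuclei held 8577142 of 43628408 in WT and 3312052 of 22394650 in PIGinH11. In PIGinH11, UGGT2 was thus no higher in ductal-like nuclei (35.9 CPM) than over all nuclei (37.3 CPM). Over all nuclei together, where the makeup of classes also enters, UGGT2 was at 11.02 and 37.3 CPM, PLCL1 at 71.3 and 135 CPM and AGBL1 at 8.85 and 20.0 CPM.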
